A study of Mus musculus with 10 samples.

Results

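Genes of death receptor signalling and necroptosis are described here across WT and *Arid1a* cKO cells of the injured mouse retina, namely *Fasl*, *Fas*, *Tnfrsf1a*, *Tnfrsf1b*, *Tnfrsf10b*, *Tradd*, *Fadd*, *Ripk1*, *Ripk3* and *Cflar*. They were taken by symbol from a list made with earlier results of these data known, and all 10 were among the 53974 genes of the RNA-seq table. *Tnfrsf10b* stayed under a TPM of 1 in all 6 libraries, so 9 members were among the 17555 genes tested. Of the 16600 regions of the ATAC-seq comparison, 2 lay within 1000 bp of an end of a member. The mice were *Arid1a* fl/fl animals on the C57BL/6 strain, 8 to 10 weeks old, and both groups had an optic nerve crush (ONC). The group called WT received AAV2-GFP in the vitreous body and is labelled *Arid1a* fl/fl, and the group called cKO received AAV2-Cre and is labelled *Arid1a* del/del. In both, a CMV promoter drove the transgene, which is not limited to retinal ganglion cells (RGCs), the virus was given 2 weeks before ONC, and the retina was taken 3 days after ONC. Living cells stained by an antibody to Thy1.2 were sorted, and 3 WT and 3 cKO RNA-seq libraries and 2 WT and 2 cKO ATAC-seq libraries were made. The comparison asks how the message and the open chromatin of these genes differ between the cells labelled WT and cKO.

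Death receptors are the members of the TNF receptor family that carry a death domain inside the cell. Fas ligand or TNF brings receptors together, and adaptors with death domains then recruit the kinase RIPK1 or the protease caspase-8. Active caspase-8 starts apoptosis, and cFLIP, the product of *Cflar*, binds caspase-8 and restrains it. Where caspase-8 is held back, RIPK1 can join RIPK3, which phosphorylates MLKL, and MLKL breaks the plasma membrane in the form of cell death called necroptosis. In the retina, Fas ligand and TNF are known both from glia and immune cells and from work on the death of RGCs after injury to their axons. *Arid1a* encodes the largest subunit of a SWI/SNF (BAF) chromatin remodeler.

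RefSeq (GRCm38.p6) gave promoter sequence for 8 of the 10 members with 9 transcription starts. *Tradd* and *Tnfrsf10b* had no entry. The 250 bases before the start are shown for the members with an ATAC-seq peak over a start, and for *Fas*, the receptor with the lowest p-value between the groups, which had no peak at either end. Capitals mark matches on either strand to GGGCGG (GC box), GGG and CC with any 5 bases between them (kappa B), TTCNNNGAA (a STAT site, also called GAS) or GAAA repeated with any 2 bases between (ISRE). Matches can overlap, and a match describes letters, not a bound site. Of all 32851 promoters of the same length, 32.7% held the GC box, 45.8% the kappa B letters, 7.02% the STAT letters and 2.98% the ISRE letters.
*Fasl*, chr1:161788496-161788745, minus strand: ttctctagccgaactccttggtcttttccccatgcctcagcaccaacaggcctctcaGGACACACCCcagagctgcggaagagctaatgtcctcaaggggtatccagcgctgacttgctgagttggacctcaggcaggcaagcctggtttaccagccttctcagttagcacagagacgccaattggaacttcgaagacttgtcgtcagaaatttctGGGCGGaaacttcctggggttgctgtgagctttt
*Fas*, chr19:34290409-34290658, plus strand: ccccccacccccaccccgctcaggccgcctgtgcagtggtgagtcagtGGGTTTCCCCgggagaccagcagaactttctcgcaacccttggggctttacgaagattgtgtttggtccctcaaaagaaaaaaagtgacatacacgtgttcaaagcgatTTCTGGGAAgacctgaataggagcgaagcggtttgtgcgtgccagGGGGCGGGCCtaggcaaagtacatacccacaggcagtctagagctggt
*Tnfrsf1a*, chr6:125349473-125349722, plus strand: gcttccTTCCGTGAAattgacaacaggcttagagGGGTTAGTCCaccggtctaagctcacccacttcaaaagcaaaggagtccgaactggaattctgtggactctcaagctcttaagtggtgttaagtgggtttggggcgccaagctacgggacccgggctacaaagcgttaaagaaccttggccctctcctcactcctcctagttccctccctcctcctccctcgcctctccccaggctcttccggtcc
*Fadd*, chr7:144582442-144582691, minus strand: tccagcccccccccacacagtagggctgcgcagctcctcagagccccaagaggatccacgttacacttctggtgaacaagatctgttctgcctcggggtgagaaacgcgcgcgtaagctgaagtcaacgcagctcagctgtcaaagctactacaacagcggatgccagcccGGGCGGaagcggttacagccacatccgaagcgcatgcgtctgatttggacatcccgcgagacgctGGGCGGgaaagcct
*Ripk1*, first start, chr13:34002113-34002362, plus strand: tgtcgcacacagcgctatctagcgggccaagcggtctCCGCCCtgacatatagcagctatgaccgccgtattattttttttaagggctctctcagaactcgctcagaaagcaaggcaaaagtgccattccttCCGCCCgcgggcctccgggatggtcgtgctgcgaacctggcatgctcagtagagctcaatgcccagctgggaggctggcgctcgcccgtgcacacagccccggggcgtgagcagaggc
*Ripk1*, second start, chr13:34002624-34002873, plus strand: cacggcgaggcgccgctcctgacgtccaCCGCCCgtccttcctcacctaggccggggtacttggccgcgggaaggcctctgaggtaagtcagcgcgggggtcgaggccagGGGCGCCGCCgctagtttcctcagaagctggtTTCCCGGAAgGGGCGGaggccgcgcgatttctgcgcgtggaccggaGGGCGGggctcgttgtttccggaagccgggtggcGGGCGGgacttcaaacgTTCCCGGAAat
The *Fadd* promoter held 2 GC boxes and none of the other letters. The first *Ripk1* promoter also held 2 GC boxes alone, and the second held 4 with 1 kappa B and 2 STAT matches. These promoters were rich in CpG dinucleotides, with 19 at *Fadd* and 19 and 32 at the starts of *Ripk1*, against a median of 6 over all promoters. *Fasl* held 7, *Fas* 11 and *Tnfrsf1a* 9. In *Fas*, the 3 kinds of match (GC box, kappa B, STAT) were present, and its GC box overlaps a kappa B match. The *Tnfrsf1b* promoter held all 4 kinds of match, *Ripk3* held 1 GC box, and *Cflar* held no match.

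The values of the RNA-seq table are TPM, which scale each library to a fixed sum per unit of transcript length, and the sequencing depth behind them is not given. A fold change is a difference of log2(TPM + 1), cKO minus WT, from limma, with p-values adjusted by Benjamini-Hochberg over all 17555 genes. On this scale the change of a weakly expressed gene is understated. Nothing in the labels says which animals went into a library, so the p-values measure the spread between libraries. *Arid1a* itself had a TPM of 18.8, 11.7 and 14.2 in the libraries labelled WT and 18.8, 27.9 and 25.0 in those labelled cKO. Its message was thus not lower in the libraries labelled cKO (log2 fold change 0.66, adjusted p = 0.274 from limma), and every direction below is by label. How much of the counted message lies in the deleted part is not stated. Summed over 7 RGC markers, the TPM was between 136.5 and 185.8 in WT and between 210.8 and 233.8 in cKO libraries, and *Thy1* and *Isl1* made up most of it. In that list *Rbpms*, *Pou4f1* and *Slc17a6* had a highest TPM of 6.43 in any library, *Thy1* ran from 52.0 to 129 and *Isl1* from 51.9 to 104. The higher sum in cKO was not shared by all 7. Mean TPM was lower in cKO for *Rbpms* (4.76 in WT, 3.33 in cKO), *Pou4f1* (2.03, 0.781) and *Sncg* (3.76, 1.92). For *Slc17a6* it was nearly equal (0.967, 0.984). *Thy1*, the antigen of the sort, was the only 1 of the 7 whose groups did not overlap. Summed over 7 T cell markers, the TPM was between 609.5 and 1667 in WT and between 232.8 and 438.9 in cKO libraries. *Thy1*, which mouse T cells share with RGCs, was the one T cell marker with a higher mean in cKO. The sums of 4 B cell markers (29.6 to 106 in WT, 8.77 to 18.0 in cKO) and of 6 myeloid markers (768.0 to 1654 in WT, 437.8 to 578.6 in cKO) did not overlap between the groups either. All 6 myeloid markers had a lower mean in cKO, but only 2 of them (*Aif1*, *C1qa*) did not overlap. *C1qa* was the largest part of the myeloid sum in every library. The sum of 5 rod markers was higher in cKO, at 24760 to 47290 against 12120 to 16920 in WT. The sum of 5 Mueller glia markers overlapped between the groups (6347 to 12550 in WT, 4458 to 10170 in cKO). So did that of 4 endothelial markers (205.1 to 535.8 in WT, 167.7 to 592.3 in cKO). *Kdr* made up nearly all of the endothelial sum, at 163.7 to 589.7 over the libraries, and its groups overlapped. No other endothelial marker exceeded a TPM of 9.61, and of these *Cldn5* was lower in cKO without overlap. All 5 Mueller glia markers and all 4 endothelial markers had a lower mean in cKO. No marker of any list was at 0 in any library.

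**Figure D1:**
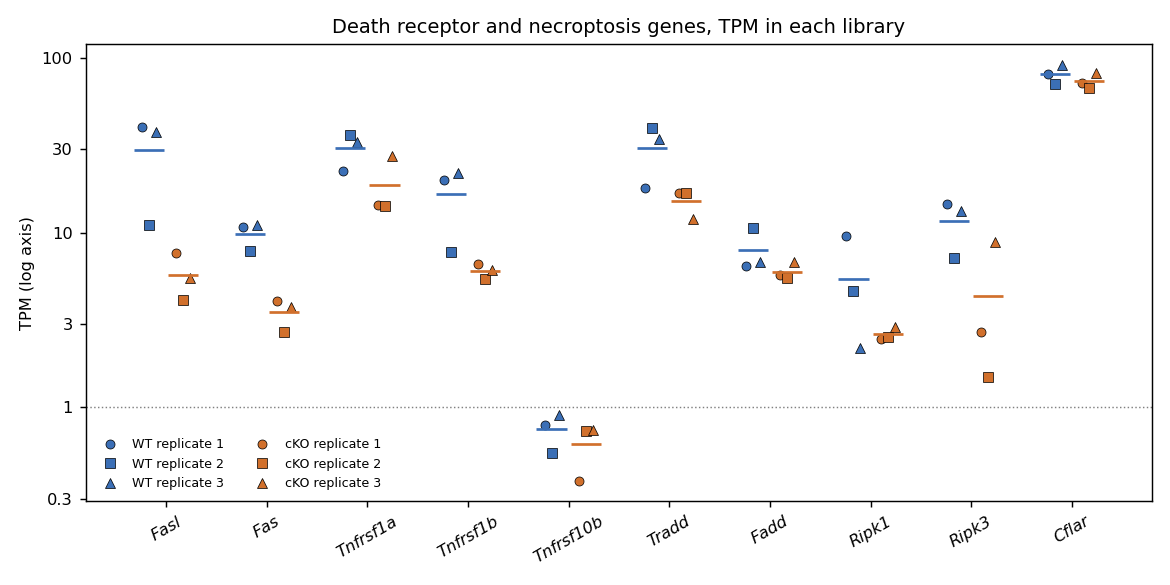
TPM of the 10 member genes in each RNA-seq library, on a log axis. Each point is a library (blue WT, orange cKO, the shape gives the replicate number), bars are group means, and the dotted line is a TPM of 1. *Fasl*, *Fas*, *Tnfrsf1b* and *Tradd* have every cKO library below every WT library, *Cflar* lies close together in all 6, and *Tnfrsf10b* lies under 1.

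The 9 members tested all had a negative fold change, and none passed the adjusted threshold of 0.05. Over all genes tested, 38.9% had a negative fold change. By limma, 0 of 9 members passed, where the background was 0% of genes lower and 0.0057% higher. With no adjustment and p under 0.05, 5 members (*Fasl*, *Fas*, *Tnfrsf1b*, *Tradd*, *Ripk3*) were lower and 0 were higher, where the background was 6.45% lower and 11.9% higher. In 4 members (*Fasl*, *Fas*, *Tnfrsf1b*, *Tradd*) every cKO library was below every WT library, as in 7.18% of all genes, and in 18.7% of all genes every cKO library was above. The median fold change of the 9 members was -0.91, and that of all genes tested was 0.16. The count at an unadjusted p under 0.05 by limma was 2 without cKO replicate 2, where 699 of 16952 genes were lower by that p. It was 3 without WT replicate 3 (848 of 17078 genes lower) and 3 without cKO replicate 1 (887 of 16938). The count without overlap was 7 without cKO replicate 3. With 1 library fewer, groups separate more easily in any gene, and the share over all genes was not counted for that setting. Scaling by the median of ratios moved the median of all genes to 0.01 and turned the background from 1133 genes lower and 2095 higher to 1677 lower and 1329 higher. With this scaling 6 members were lower at an unadjusted p under 0.05, 6 did not overlap, and the 9 fold changes stayed negative. The share of all genes without overlap was not counted with this scaling. In bulk libraries, fewer cells of a type and less message per cell cannot be told apart. The T cell, B cell and myeloid marker sums moved in the same direction as the members. The means of the Mueller glia and endothelial markers did so too, and the part of all these cells in the differences was not tested.

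Among the members, *Cflar* had the highest level and *Tnfrsf10b* the lowest, averaged over the 6 libraries per unit of length. The order of mean TPM was *Cflar* (77.6), *Tnfrsf1a* (24.6), *Tradd* (22.9), *Fasl* (17.7), *Tnfrsf1b* (11.3), *Ripk3* (8.02), *Fadd* (6.96), *Fas* (6.68), *Ripk1* (4.04) and *Tnfrsf10b* (0.684). The lowest *Cflar* library (67.6) was above the highest *Tnfrsf1a* library (36.0), and the highest *Tnfrsf10b* library (0.899) was below the lowest *Ripk1* library (2.20). All other neighbours in this order overlapped in their range over the 6 libraries. The order differed by group: in WT the mean of *Tradd* (30.7) was just above that of *Tnfrsf1a* (30.5), and in cKO *Fasl* (5.73) was below *Tnfrsf1b* (6.02) and *Fadd* (5.97). The cell that carries each message is not resolved in sorted bulk RNA. Gene positions below are from RefSeq on GRCm38.p6.

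*Fasl* (chr1:161780691-161788495), the ligand of Fas and a product of activated T cells and natural killer cells, had the largest difference of the members tested. Its TPM was 40.3, 11.0 and 37.6 in the WT libraries and 7.61, 4.11 and 5.48 in the cKO libraries. The groups did not overlap, but WT replicate 2 lay much closer to the cKO libraries than to the other two. The means were 29.7 ± 16.2 in WT and 5.73 ± 1.76 in cKO (SD, n = 3 each). This gave a log2 fold change of -2.02 with an SE of 0.515 and a 95% interval from -3.24 to -0.81 (unadjusted p = 0.00554, adjusted p = 0.139 from limma). WT replicate 2 was also the WT library with the lowest sums of T cell (609.5), B cell (29.6), myeloid (768.0) and rod markers (12120). Its sum of RGC markers (185.8) was the highest in WT, and its Mueller glia and endothelial sums lay between those of WT replicates 1 and 3. *Fas*, *Tnfrsf1b*, *Tnfrsf10b*, *Ripk3* and *Cflar* also had their lowest WT value in that library. Not all members were low there: *Tnfrsf1a* (36.0), *Tradd* (39.8) and *Fadd* (10.6) had their highest WT value in that library. A link between these values and the marker sums was not tested. Without WT replicate 2 the *Fasl* fold change was -2.60, and without WT replicate 1 it was -1.71.

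*Fas* (chr19:34290647-34327775), the receptor for Fas ligand, had the lowest p-value of the members. Its TPM was 10.7, 7.86 and 11.0 in WT and 4.04, 2.71 and 3.77 in cKO libraries, with means of 9.86 ± 1.74 and 3.51 ± 0.698 (SD, n = 3 each). The lowest WT library stood well above the highest cKO library, and the spread within each group was small. The log2 fold change was -1.27 (SE 0.284, 95% interval -1.94 to -0.60), with an unadjusted p of 0.00283 and an adjusted p of 0.124 from limma. Leaving out any 1 library left it between -1.41 and -1.13.

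The TNF receptors differed in how far their groups separated. *Tnfrsf1b* (chr4:145212368-145246870) encodes TNFR2, which has no death domain and signals through TRAF2, and it is known from T cells and myeloid cells. Its TPM was 20.1, 7.72 and 21.9 in WT and 6.59, 5.39 and 6.08 in cKO libraries. The cKO libraries agreed closely and all lay below WT replicate 2, which again was the lowest of the WT libraries. Its libraries gave a log2 fold change of -1.20 (SE 0.41, unadjusted p = 0.0216, adjusted p = 0.196 from limma). Leaving out WT replicate 2 gave -1.65, and leaving out WT replicate 3 gave -0.95 with an unadjusted p of 0.0751 from limma, no longer under 0.05. Leaving out WT replicate 1 (-1.01) or cKO replicate 2 (-1.14) likewise left it above 0.05. *Tnfrsf1a* (chr6:125349723-125362483) encodes TNFR1, the death receptor for TNF that most cell types carry. Its TPM was 22.5, 36.0 and 33.0 in WT and 14.3, 14.2 and 27.5 in cKO libraries. The groups overlapped, since cKO replicate 3 fell within the WT range, but each cKO library was below the WT library of the same number. With all 6 libraries the log2 fold change was -0.72 with a 95% interval from -1.52 to 0.08 (unadjusted p = 0.0713, adjusted p = 0.308 from limma). With the replicate number as a block, the unadjusted p was 0.045 and the adjusted p 0.218 from limma. In that fit *Tnfrsf1a* brought the members under 0.05 to 6, where 1495 of 17555 genes were lower by that p (1133 with no block). Leaving out 1 library gave values from -1.02 (without cKO replicate 3) to -0.57 (without cKO replicate 2). *Tnfrsf10b* (chr14:69767472-69784411), the mouse receptor for TRAIL, had a TPM of 0.795, 0.551 and 0.899 in WT and 0.381, 0.734 and 0.742 in cKO libraries. The groups overlapped, and no fold change was fitted because no library reached a TPM of 1.

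The adaptors link receptors to the kinase and the protease. *Tradd* (chr8:105258575-105264594), which TNFR1 recruits first, had a TPM of 17.9, 39.8 and 34.2 in WT and 16.8, 16.9 and 11.9 in cKO libraries. The groups did not overlap, but WT replicate 1 exceeded the highest cKO library only slightly. Its log2 fold change was -0.91 (SE 0.348, unadjusted p = 0.035, adjusted p = 0.234 from limma). It was -1.24 without WT replicate 1 and -0.69 without WT replicate 2. Leaving out any library other than WT replicate 1 left an unadjusted p from limma between 0.058 and 0.104. *Fadd* (chr7:144578323-144582441), the adaptor that brings caspase-8 to Fas, had a TPM of 6.41, 10.6 and 6.82 in WT and 5.69, 5.49 and 6.75 in cKO libraries. The groups overlapped, and only WT replicate 2 stood above the rest. Its log2 fold change was -0.33 with a 95% interval from -1.02 to 0.35 (adjusted p = 0.576 from limma), and -0.13 without WT replicate 2.

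The groups of both kinases overlapped. *Ripk3* (chr14:55784995-55788857), the kinase that defines necroptosis, had a TPM of 14.5, 7.17 and 13.4 in WT and 2.71, 1.49 and 8.83 in cKO libraries. In this gene cKO replicate 3 exceeded WT replicate 2, although each cKO library was below the WT library of the same number. For *Ripk3* the log2 fold change was -1.44 (SE 0.55, 95% interval -2.74 to -0.15), with an unadjusted p of 0.0339 and an adjusted p of 0.231 from limma. With the replicate number as a block, limma gave an unadjusted p of 0.00963 and an adjusted p of 0.12. Without cKO replicate 3 the fold change was -2.01, and without cKO replicate 2 it was -1.02 with an unadjusted p of 0.108 from limma. Leaving out WT replicate 1, WT replicate 3 or cKO replicate 1 likewise left an unadjusted p from limma between 0.0862 and 0.101. A long noncoding RNA of RefSeq, *Gm32092*, covers all 3863 bases of *Ripk3*, and the strand setting of the quantification is not given, so reads of the pair may not have been told apart. *Ripk1* (chr13:34002225-34035170), which carries both the survival and the death signal of TNFR1, had a TPM of 9.51, 4.66 and 2.20 in WT and 2.46, 2.52 and 2.90 in cKO libraries. WT replicate 3 was the lowest of all 6 libraries and WT replicate 1 the highest, so the WT range enclosed the cKO range. The log2 fold change was -0.67 with a 95% interval from -1.73 to 0.39 (adjusted p = 0.466 from limma). It was -0.23 without WT replicate 1 and -1.09 without WT replicate 3. *Ripk1* shares 570 bases with *Serpinb6a*, so part of its reads carries the same uncertainty.

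*Cflar* (chr1:58711311-58758884), the inhibitor of caspase-8, had the smallest difference of the members and the highest level. Its TPM was 81.1, 70.8 and 91.3 in WT and 72.3, 67.6 and 82.4 in cKO libraries. The groups overlapped widely. The log2 fold change was -0.13 with a 95% interval from -0.61 to 0.36 (SE 0.205, adjusted p = 0.772 from limma). A decrease of more than 0.61 or an increase of more than 0.36 on the log2 scale lay outside that interval. These limits hold for the TPM scaling alone. With scaling by the median of ratios the fold change was -0.29 (SE 0.209, adjusted p = 0.509 from limma), so its interval lies lower.

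**Figure D2:**
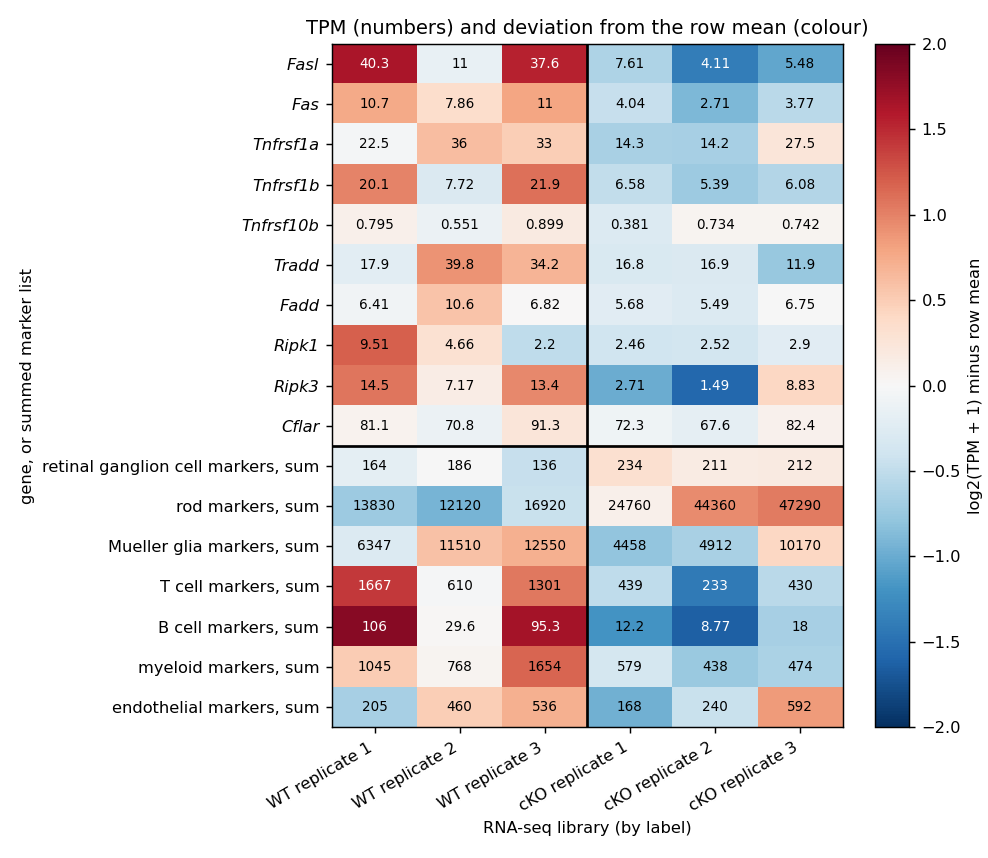
TPM of the 10 member genes and of 7 summed marker lists in each RNA-seq library. Numbers are TPM, and colour is log2(TPM + 1) minus the mean of its row (red above, blue below, scale -2 to 2). *Fasl*, *Fas*, *Tnfrsf1b*, *Tnfrsf10b*, *Ripk3* and *Cflar* are lowest among WT libraries in replicate 2. The T cell (609.5), B cell (29.6), myeloid (768.0) and rod (12120) sums are lowest there as well, and the RGC sum (185.8) is highest. *Tnfrsf1a*, *Tradd* and *Fadd* are highest among WT libraries there, and *Cflar* is pale throughout.

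The genes most like 3 of the members over the 6 libraries were found by the lowest root mean square difference of log2(TPM + 1), each gene centred on its own mean. For *Fas* they were *Tpm4* (0.05), *Helz2* (0.09) and *Spsb1* (0.11). The *Tnfrsf1a* pattern was closest to *Wdr46* (0.05), *C1rl* (0.07) and *Acadl* (0.07). The distances for *Ripk3* were larger, with *C1ra* (0.22), *H2-Q10* (0.22) and *P2rx7* (0.23) nearest. *Tpm4* had a TPM of 104, 71.9 and 100 in WT and 43.4, 32.7 and 39.5 in cKO libraries, with WT replicate 2 and cKO replicate 2 lowest in their groups as for *Fas*. These are descriptions over 6 libraries, whose marker sums differ between the groups.

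A further list held 49 genes of the same pathways (ligands, receptors, the ubiquitin and kinase complex at TNFR1, the caspase-8 complex and the necroptosis machinery), of which 47 were tested. None of the 47 passed the adjusted threshold by limma. Without adjustment, 7 genes were lower and 4 were higher with p under 0.05, and in 7 genes the cKO libraries lay wholly below and in 4 wholly above WT. Over all genes tested, 6.45% were lower and 11.9% higher by that p, and 7.18% lay wholly below and 18.7% wholly above. Their median fold change was -0.14 (all genes 0.16). *Tnfsf15* and *Eda2r* did not pass the filter on low TPM.

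Of the 4 ligands tested, *Lta* and *Tnf* were lower and *Tnfsf12* was higher, each with an unadjusted p under 0.05. *Tnf*, the ligand of both TNF receptors, had a TPM of 35.0, 16.3 and 29.6 in WT and 15.1, 4.68 and 9.65 in cKO libraries, without overlap (log2 fold change -1.43, adjusted p = 0.184 from limma). *Lta*, lymphotoxin alpha from lymphocytes, had a TPM of 7.31 to 13.5 in WT and of at most 4.60 in cKO libraries (-1.52, adjusted p = 0.13). *Tnfsf12*, which encodes TWEAK, went the other way, from 27.9 to 36.4 in WT and from 55.3 to 90.4 in cKO libraries (1.07, adjusted p = 0.13). *Tnfsf10*, which encodes TRAIL, had a TPM of 7.10, 1.26 and 7.68 in WT and 1.82, 0.661 and 2.18 in cKO libraries, and the groups overlapped (-1.14, adjusted p = 0.338). Among 6 further receptors, *Tnfrsf25*, a death receptor of T cells, was the one at an unadjusted p under 0.05 (-1.09, adjusted p = 0.187).

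Around TNFR1, 24 ubiquitin and kinase genes had a median fold change of 0.05. *Traf1*, an NF-kB target that binds TNFR2, had a TPM of 56.6, 16.6 and 48.3 in WT and 14.7, 7.58 and 11.6 in cKO libraries (log2 fold change -1.62, adjusted p = 0.17 from limma). The low WT value was again in replicate 2. *Tnip1*, a partner of the deubiquitinase A20, was lower (-0.56, adjusted p = 0.262) and *Xiap*, an inhibitor of caspases, was higher (0.88, adjusted p = 0.183), both at an unadjusted p under 0.05. *Casp8*, the protease that Fas and FADD activate, stood apart from its inhibitor *Cflar*. Its TPM was 69.2, 56.5 and 82.1 in WT and 23.1, 14.6 and 31.8 in cKO libraries, so that the lowest WT library was above the highest cKO library. The log2 fold change of *Casp8* was -1.59 (SE 0.321, unadjusted p = 0.00162, adjusted p = 0.124 from limma). *Faim2*, a neuronal inhibitor of Fas signalling, was higher at an unadjusted p under 0.05 with overlapping groups (0.82, adjusted p = 0.214).

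In the necroptosis group, *Zbp1*, a nucleic acid sensor that activates RIPK3, had a TPM of 57.1, 28.6 and 34.5 in WT and 12.7, 5.13 and 9.53 in cKO libraries. The groups were well apart (log2 fold change -2.04, SE 0.397, adjusted p = 0.124 from limma). *Mlkl*, the executioner of necroptosis, had a TPM of 4.46, 0.759 and 3.80 in WT and 1.59, 0.232 and 2.68 in cKO libraries. Its groups overlapped, with replicate 2 lowest in both (-0.66, adjusted p = 0.577). *Pgam5*, a mitochondrial phosphatase, was higher at an unadjusted p under 0.05 (0.53, adjusted p = 0.244). The T cell, B cell and myeloid marker sums given above moved with the pathway genes that were lower. The Mueller glia and endothelial marker means did so too. The rod and RGC marker sums moved with the pathway genes that were higher, though not all 7 RGC markers did. The part of all these cells in the values was not tested.

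**Figure D3:**
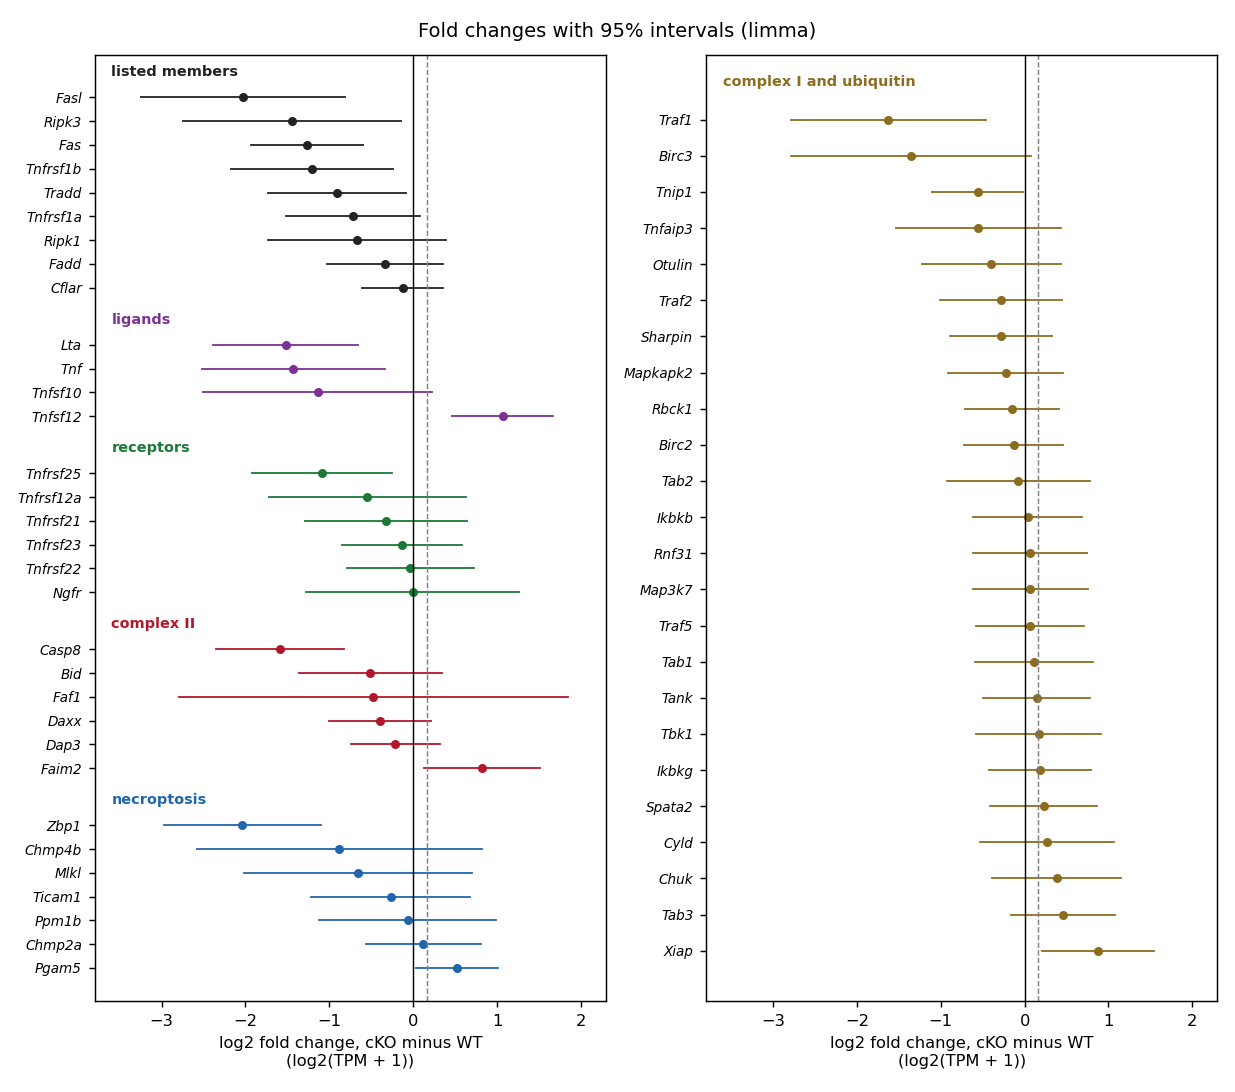
Log2 fold change, cKO minus WT, with its 95% interval from limma for the 9 members tested and the 47 other pathway genes tested, grouped by role. The dashed line is the median of all genes tested (0.16). The 9 members all lie below 0 and 5 of their intervals do not reach it, and none of the genes shown passed the adjusted threshold.

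*Fadd* and *Ripk1* were the members with an ATAC-seq region at an end, and both regions had fewer reads in cKO than in WT. The authors' comparison holds, for each region, 1 value per group (log2 mean normalized reads) and no value per library, so no error can be given for a region. Of the 9 tested members, 2 had a region at an end (22.2%), where the background was 51.5% of the 15518 tested genes with a position. The *Fadd* region, chr7:144581424-144582535, ran from -94 to 1017 bases around the start. It held 38.6 normalized reads in WT and 6.59 in cKO (log2 difference -2.55), and both WT libraries and neither cKO library had a peak in it. The *Ripk1* region, chr13:34002119-34003337, covered both starts shown above. It held 52.3 normalized reads in WT and 9.65 in cKO (log2 difference -2.44), again with peaks in both WT libraries and in neither cKO library. A narrow peak of cKO replicate 1 lay upstream of it, from -673 to -446 bases of the first start. The neighbour *Serpinb6a* overlaps this end of *Ripk1*, so the region lies at an end of both genes. These differences were of the usual size: 6966 regions at an end of a tested gene had a median of -2.58, and 93.1% of them had a difference of -1 or lower. Of those regions, 50.9% had a lower difference than the *Fadd* region and 55.4% a lower one than the *Ripk1* region. *Fadd* and *Ripk1* were among the members whose messages overlapped between the groups. The other pathway genes had a region at an end in 30 of 47 cases (63.8%), with a median difference of -2.68 over 32 regions.

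Within 1000 bp of an end, 6 of the 10 members had a peak in at least 1 library. The share of all tested genes with a peak in any library was not counted, but WT replicate 1 alone reached 65.1%. *Fadd* and *Ripk1* had peaks in both WT libraries, against a background of 51.6% of tested genes, and no member had peaks in both cKO libraries, against 2.27%. By library, 4 members had such a peak in WT replicate 1 (background 65.1%), 4 in WT replicate 2 (58.2%), 2 in cKO replicate 1 (13.6%) and 1 in cKO replicate 2 (13.9%). At *Fasl*, WT replicate 1 had a peak over the start, from -208 to 80 bases, and cKO replicate 2 had one near the far end of the gene. A peak over the *Tnfrsf1a* start, from -231 to 307 bases, was found in cKO replicate 1 alone, and WT replicate 2 had a peak near the far end. *Tradd* had a peak in WT replicate 2, wholly inside the gene and 817 bases from its nearer end. At *Cflar*, WT replicate 1 had a peak from -313 to -24 bases of the start. The gene *Fbxl8* lies 53 bases from *Tradd*, and *Plekhg6* lies 167 bases from *Tnfrsf1a*. A peak at an end of these members may therefore lie near a neighbour as well. *Fas*, *Tnfrsf1b*, *Tnfrsf10b* and *Ripk3* had no peak at an end in any library. The depth of the ATAC-seq libraries is not given, so a missing peak does not show closed chromatin.

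**Figure D4:**
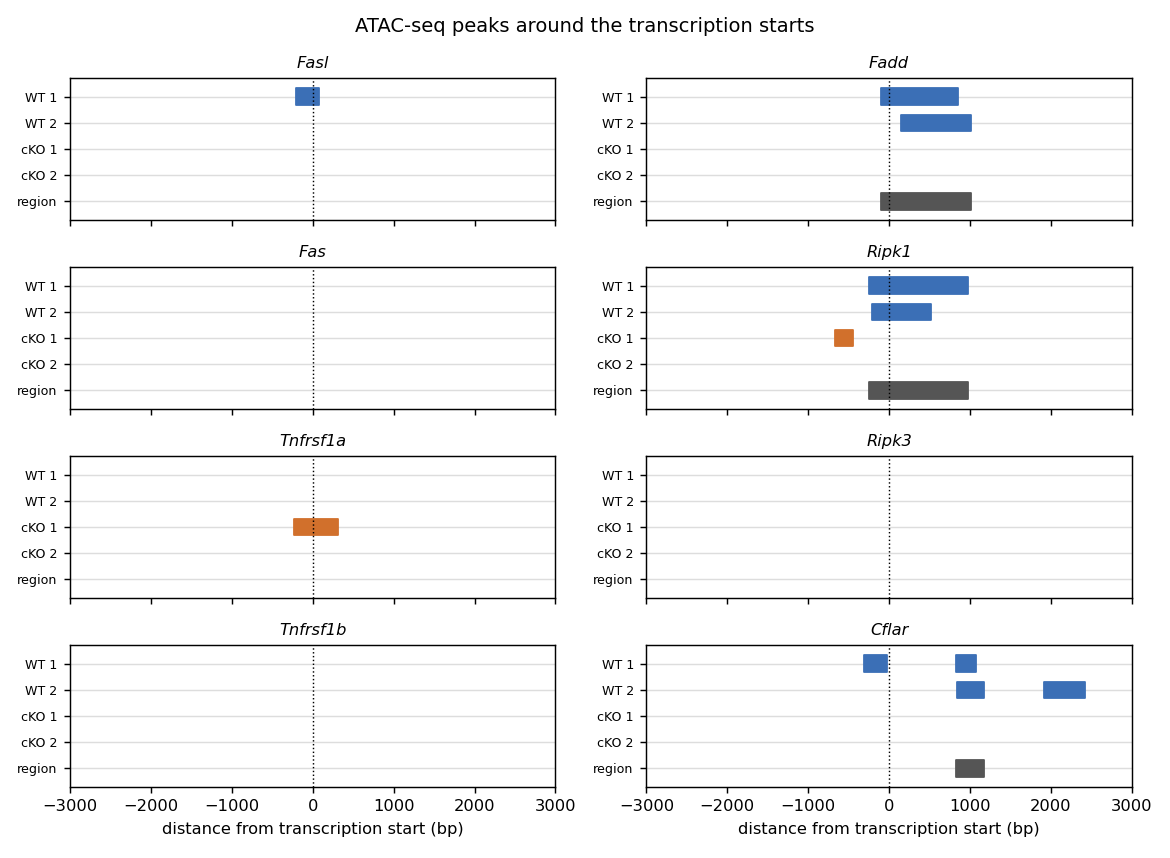
ATAC-seq peaks of each library (blue WT, orange cKO) and regions of the comparison (grey) within 3000 bp of the transcription start of the 8 members with a known strand, as distance from the start in bp, negative upstream. *Ripk1* has peaks over the start in both WT libraries, *Fadd* has one over the start in WT replicate 1 and one from 143 bases downstream in WT replicate 2, *Tnfrsf1a* has 1 cKO peak there, and *Fas*, *Tnfrsf1b* and *Ripk3* have none in this window.

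*Cflar* and *Tnfrsf1b* had regions inside the gene, outside the window of 1000 bp. A *Cflar* region just past the limit, chr1:58712321-58712660, lay 830 to 1169 bases after the start and 1010 bases inside the gene, with 11.0 normalized reads in WT and 2.62 in cKO (log2 difference -2.07). Both WT libraries had a peak in it. Deeper in *Cflar*, the region chr1:58722307-58722804 held 12.8 and 5.86 normalized reads (-1.13). The region chr1:58719010-58719391 went the other way, with 2.77 in WT and 7.73 in cKO (1.48) and a peak in both cKO libraries. In *Tnfrsf1b*, the region chr4:145228427-145229828 held 19.3 normalized reads in WT and 19.2 in cKO (-0.01), with a peak in each cKO library and none in WT. Whether these positions are exons or introns was not resolved, because the gene table used gives gene ends alone. *Ripk1* had a further region 2298 bases past its end with 12.8 and 6.50 normalized reads (-0.98).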

How the data were processed

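RNA-seq (3 WT, 3 cKO libraries) and ATAC-seq (2 WT, 2 cKO) were grouped by the sample titles. For RNA-seq the authors trimmed reads with Trimmomatic, quantified them with Salmon 1.0.0 on GENCODE and deposited TPM per gene from tximport. For ATAC-seq the authors aligned reads with Bowtie2 2.3.5.1 and deposited peak positions per library and a DiffBind table with log2 mean normalized reads for each group. MACS2 2.2.5 is named in the submitters' processing notes. The authors' fold changes, p-values and FDRs in both comparison tables were not used. Depth is not given, so no counting error can be stated.

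The filter kept genes reaching a TPM of 1 in 3 or more of the 6 libraries, and log2(TPM + 1), with a pseudocount of 1, was fitted with limma 3.58.1 in R 4.3.3 (trend, Benjamini-Hochberg, threshold 0.05). Exact permutation of 3 against 3 libraries gives no p under 0.1. Differences of ATAC-seq group values, windows of 1000 bp around gene ends (at least 1 bp inside, positions counted from 1) and motif matches used Python 3.11.15, with gene positions and promoters from RefSeq GRCm38.p6. The fit and the window search were tested on simulated data. Members and lists were chosen with earlier results of these data known. The text names all members, *Arid1a*, the 3 genes most like *Fas*, *Ripk3* and *Tnfrsf1a*, the pathway genes at an unadjusted p under 0.05, and *Mlkl*, *Casp8*, *Tnf* and *Tnfsf10*. Whether replicate numbers pair the libraries was checked from deviations within groups. Same-numbered libraries correlated at 0.334, 0.101 and 0.425 over 17555 genes. The highest correlation with another number was 0.193, -4.24e-05 and -0.222. With 3 libraries a group, this check cannot settle whether the numbers pair the samples. The main fit had no pairing, and the replicate block was an alternative. Other alternatives were a pseudocount of 0.1, no filter, median-of-ratios scaling, a mean TPM of at least 5, no trend, leaving out each library, a window of 3000 bp, at least 50% of a peak inside the window, peaks in both libraries of a group, a log2 difference of -2 or lower, and a window around transcription starts, which was added after the data were seen.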

Additional observations from a re-analysis of the deposited data

How the results depend on the processing

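No member and no other pathway gene passed the adjusted threshold under any RNA-seq alternative, and the lowest adjusted p of a member was 0.0739, for *Fasl* with the replicate block. The block changed no call among these genes, and the count of members at an unadjusted p under 0.05 was 6 with it and 5 without. The background rose with the block too, from 1133 genes lower and 2095 higher by that p to 1495 lower and 2352 higher. Every member tested kept a negative fold change under each alternative, with 10 members tested without the filter and 8 at a mean TPM of at least 5. Leaving out each library in turn, the count at an unadjusted p under 0.05 ran from 2 to 5, the count without overlap from 4 to 7, and the median fold change from -1.02 to -0.685. In these limma fits, the number of all genes lower by that p ran from 699 to 1321. All genes without overlap were not counted. For ATAC-seq, 2 members had a peak in both libraries of a group, against 6 with a peak in any library, by the construction of that alternative. A window of 3000 bp gave 3 members with a region and 9 with a peak. A window around the transcription starts of 8 members, chosen after the data were seen, gave 3 with a region and 5 with a peak. The shares over all tested genes were not counted for either window. Both *Fadd* and *Ripk1* regions had a difference of -2 or lower. No paired analysis was possible because regions carry no replicate values in the ATAC-seq table. With 3 libraries a group and 2 for ATAC-seq, without depth, small differences such as those of *Fadd* and *Cflar* could not be told from 0. The larger RNA-seq differences of the other members did not pass the adjusted threshold either.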

Other observations

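The level of *Cflar* relative to *Casp8* within a library was looked at after the values of both were seen, so it is given with no test. The ratio of their TPM was 1.17, 1.25 and 1.11 in the WT libraries and 3.13, 4.63 and 2.59 in the cKO libraries, with means of 1.18 ± 0.0706 and 3.45 ± 1.05 (SD, n = 3 each). A ratio within a library does not depend on the scaling between libraries. The *Cflar* values of the groups overlapped, and the *Casp8* values did not. The ratio of *Fas* to *Casp8* had overlapping groups, at 0.155, 0.139 and 0.134 in WT and 0.175, 0.186 and 0.119 in cKO libraries. The groups also overlapped in the ratios of *Fasl* to *Fas*, *Ripk3* to *Ripk1*, *Tnfrsf1a* to *Tnfrsf1b* and *Tradd* to *Fadd*. The immune marker sums of these libraries differ between the groups, and their part in the ratio of *Cflar* to *Casp8* was not tested.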
